A study of Mus musculus with 333 samples.

Results

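Microglia of the adult mouse visual cortex were compared with microglia of the same region at postnatal day 12 (P12), cell by cell. The adult arm held 9 cells and the P12 arm 14 cells, 23 of the 333 single cells of the study and of its 42 cells labelled Microglia. The adult cells were those labelled Microglia in the adult visual cortex set, 11 in all, minus cells 1 and 6, whose profiles were near-identical and carried B cell transcripts. The P12 cells were selected on a measured value, P2ry12 at 2500 CPM (reads of a gene scaled to the total of the cell) or more, which 14 of 18 labelled cells met. Each cell is called here by the number in its title. All cells came from wild-type mice; the design gives 5 mice per stage, no label ties a cell to a mouse, and the age of the adults is given only as adult. Single cells were enriched by flow sorting, by a gate the labels do not describe, captured on a microfluidic device, and their polyadenylated RNA was amplified and sequenced.

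Microglia are the resident macrophages of the brain. They descend from yolk sac progenitors, need the growth factor receptor Csf1r to survive, and depend on TGF-beta signalling for their mature state. At rest they survey the tissue through receptors such as P2ry12, which senses nucleotides from damaged cells, and Cx3cr1, the receptor of a neuronal chemokine. In the visual cortex of young animals they engulf synapses, partly through complement, and their expression programme matures over the first weeks of life.

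The adult cells held 768048 to 1956323 reads on genes and 1808 to 2632 detected genes. The P12 cells held 884543 to 1755940 reads and 1951 to 2750 genes. All 16 microglial markers were read in both arms, with a summed level of 34226 to 56930 CPM per adult cell and 32698 to 84037 CPM per P12 cell. P2ry12, which chose the P12 cells, is among the 16, so these sums are not compared between the arms. Of 16 markers of border-associated macrophages, the macrophages of the meninges and vessels, 10 had no read in any adult cell and 8 had none in any P12 cell, Lyve1 and Cd163 among them in both arms. Their summed level was 5.41 to 4361 CPM in adult cells and 0.753 to 7239 CPM in P12 cells. Of the 3 measured ones, Stab1 was higher in adult cells and Mrc1 lower, by the rule given below. Of 13 B cell markers 10 were at 0 in the adult arm, and 2 had a read in the P12 arm. Their sum reached 588.6 CPM in adult cells and 1236 CPM in P12 cells. Summed astrocyte markers were at 709.0, 1829 and 2518 CPM (lowest, median, highest) in adult cells and at 116.8, 1622 and 5456 CPM in P12 cells. By the rule given below 3 of 6 measured astrocyte markers were lower in adult cells (Slc1a2, Slc1a3 and Aldoc). The part of astrocyte and B cell transcripts in the results was not tested. Adult cell 35 carried OPC (oligodendrocyte precursor) markers at 5370 CPM in sum, 35.7% of the median of cells labelled OPC. Of 14 monocyte and neutrophil markers 11 were at 0 in the adult arm, S100a8 and S100a9 among them. Their sum, nearly all Csf3r, reached 8335 CPM in adult cell 11, 3047 CPM in adult cell 36 and 5037 CPM in the highest P12 cell, and its part in the results was not tested.

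The 4 P12 cells left out for low P2ry12 (cells 23, 30, 54 and 55) held 25620 to 43873 CPM of the border-associated macrophage markers, so that they stood apart from every kept cell. The nearest values on either side of the P2ry12 minimum were 3758 CPM in P12 cell 18, kept, and 1462 CPM in P12 cell 23, left out. P2ry12 itself was at 4647, 7002 and 8747 CPM (lowest, median, highest) in the adult cells and at 3758, 12943 and 23973 CPM in the kept P12 cells. Since it chose the P12 cells, no comparison of its level is drawn. Adult cells 1 and 6 correlated with each other at a Pearson r of 0.994 across genes, against 0.504 for the next nearest pair of cells labelled Microglia and 0.309 to 0.472 among the 23 cells compared.

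**Figure D1:**
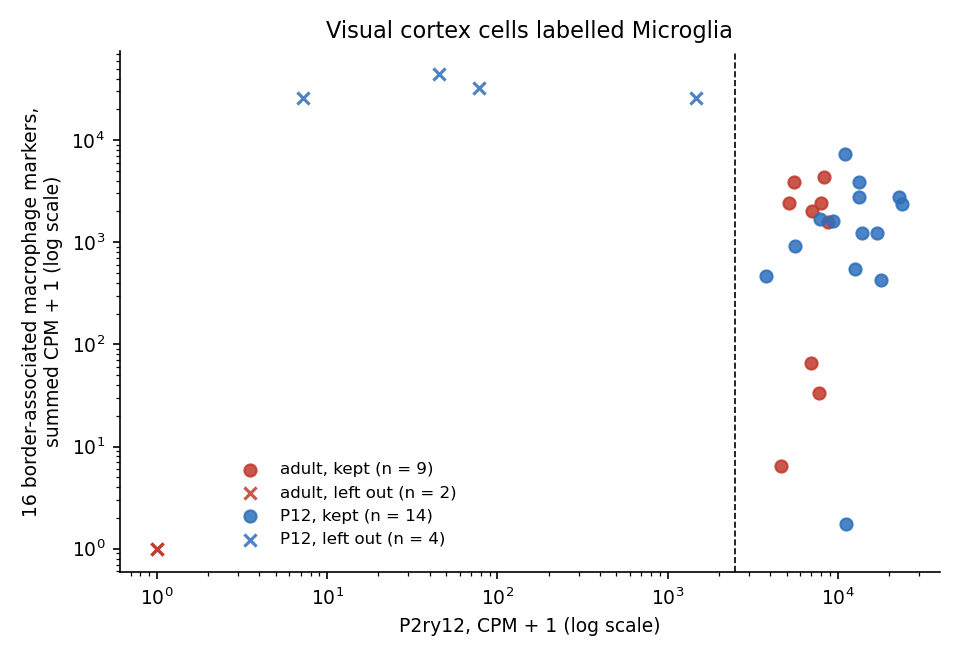
Each point is 1 visual cortex cell labelled Microglia, with P2ry12 on the x axis and the summed level of 16 border-associated macrophage markers on the y axis, both as CPM + 1 on log scales; the dashed line is the minimum of 2500 CPM. The 4 P12 cells left out lie at 25620 CPM or more of the macrophage markers and left of the line, and the 2 adult cells left out lie at 0 on both axes.

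Cells of 1 arm are not replicates of an age, since no label says which of them share a mouse. Each arm was therefore treated as 1 sample, its level of a gene was the CPM of its summed counts, with an exact Poisson interval that covers counting error only, and no p-value was computed. The adult set also carries its own run of cell identifiers (1267 to 1368, against 1750 to 1806), so age and this difference between the sets cannot be told apart. Reads of Xist, the transcript of the inactive X chromosome, were found in 0 of 9 adult cells, which for counting error over cells allows a share of up to 33.3% and says nothing of the mice, and in 6 of 14 P12 cells, and reads of 4 Y-linked genes in 7 and 8 cells. The sex of the mice is not in the labels, so the make-up by sex is a further difference whose part in the results was not tested.

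A gene was called measured when the mean of the 2 arms was at least 10 CPM, which 5655 of 22074 genes met. It was called higher or lower in adult cells when the arms differed at least 2-fold (with 1 CPM added) and still did so whichever single cell was left out. By this rule 527 genes were higher (9.32% of those measured) and 1319 were lower (23.3%). The median log2 ratio, adult over P12, was -0.45 over all measured genes, and scaling by TMM or by the median of ratios raised the adult level by 0.07 or 0.18 on the log2 scale, with a smaller or no shift in the ratio for genes near 0 CPM in the adult arm. A count of genes in a list is read below against those shares and that median. Leaving out 1 cell moves a sum over 9 cells more than one over 14. Of the calls 42.2% were in the higher direction without the condition on left-out cells and 28.5% with it. Among measured genes 732 had no read in the adult arm and 281 had none in the P12 arm. The part of cell number and detection in the excess of lower genes was not tested. No measured gene had arms that did not overlap. A stricter pattern was therefore described after the values were seen. In 26 genes (0.46% of those measured) at least 5 of 9 adult cells lay above the highest P12 cell. In 42 genes (0.743%), 41 without P2ry12, at least 8 of 14 P12 cells lay above the highest adult cell. These shares are not symmetric, since a highest value over 14 cells is harder to pass than one over 9. The 26 became 11 (without adult cell 35) to 18 as single adult cells were left out. The 41 became 54 to 73 (without P12 cell 34) as single P12 cells were left out. The cut-off was a majority of the cells in the arm, and it was reset to the cells left. With 1 P12 cell fewer it falls below 8, which by itself raises the count. With 1 adult cell fewer it stays at 5 out of fewer cells, which by itself lowers the count. The shifts from 26 and 41 are therefore not read as dependence on single cells.

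Interleukin-1 and chemokine transcripts stood out on the adult side. Il1a, an alarm cytokine of the interleukin-1 family, was at 35.1, 5761 and 15920 CPM in the adult cells (lowest, median, highest) and at 0, 28.1 and 3519 CPM in the P12 cells. Of the 9 adult cells 7 lay above the highest P12 cell, the most for any measured gene, and the remaining cells sat within the P12 range. Summed over cells, Il1a was at 6832 CPM (95% interval 6784 to 6880) against 766.0 CPM (753.5 to 778.6), 8.92-fold higher, and the log2 ratio stayed between 2.92 and 3.65 whichever cell was left out.

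Ccl7, a chemokine that draws monocytes, was at 0, 1507 and 3465 CPM in adult cells and at 0, 0 and 373.4 CPM in P12 cells. It was present or absent rather than graded: 5 adult cells lay above every P12 cell and the other adult cells had no read. The summed level was 58.6-fold higher (1550 against 26.5 CPM), with a log2 ratio of 5.60 without adult cell 37 and 8.84 without P12 cell 43. Ccl3, a chemokine made by macrophages, was at 0, 1901 and 4322 CPM in adult cells and at 0, 237.8 and 3667 CPM in P12 cells, 3.3-fold higher in sum with arms that overlapped. Il1b was carried by few cells, 3 of 9 adult cells (up to 4630 CPM) and 1 of 14 P12 cells (1121 CPM). Its 11.3-fold ratio in sum rested on single cells, with a log2 ratio of 1.10 without adult cell 36 and 9.89 without P12 cell 14. Cxcl2, a neutrophil chemokine, was read in 2 adult cells (up to 453.1 CPM) and in none of the P12 cells. Its adult sum was 301.1-fold above a floor of 3 reads over the P12 arm, which covers counting error only.

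Ccl2, Ccl4 and Ccl12 did not meet the rule, and Tnf met it in the other direction. Ccl2 was at 2932 CPM in the adult arm and 1117 CPM in the P12 arm, and its log2 ratio ran from 0.51 to 2.05 as single cells were left out. Ccl4 was at 4264 and 2523 CPM, and the highest value of all belonged to a P12 cell (20134 CPM). Ccl12 was at 529.3 and 648.5 CPM. Tnf was low in both arms and lower in adult cells (4.48 against 27.8 CPM), with reads in 1 adult cell and 3 P12 cells.

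**Figure D2:**
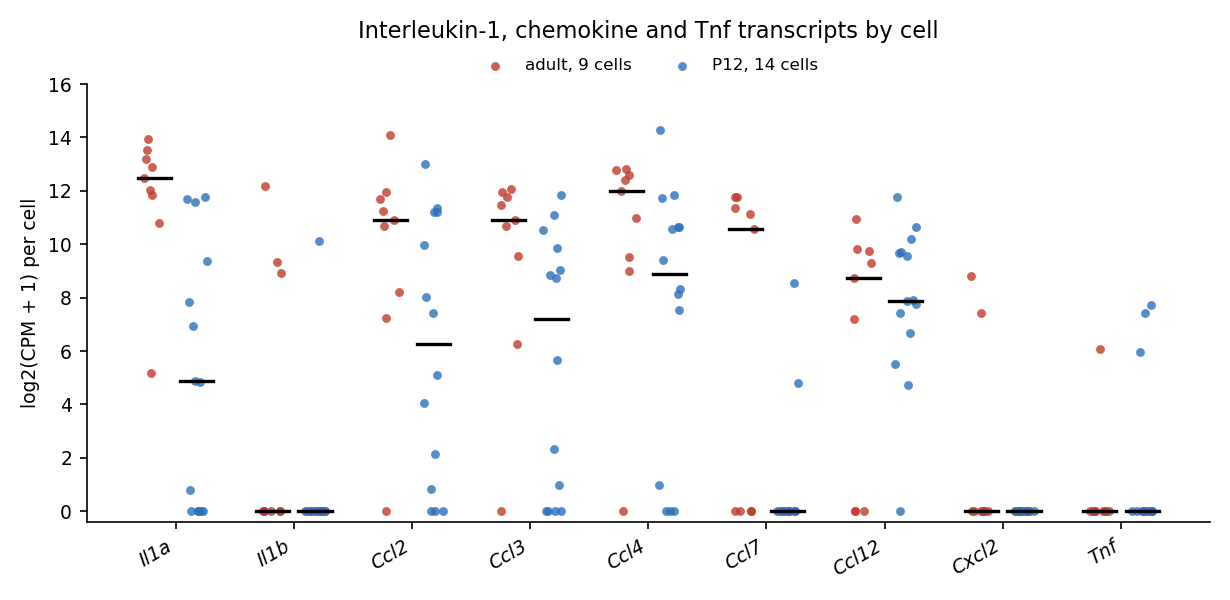
Each point is 1 cell, the y axis is log2(CPM + 1), and black bars are medians over the cells of an arm. Il1a in 7 of 9 adult cells and Ccl7 in 5 of 9 lie above every P12 cell, while Ccl4, Ccl12 and Tnf overlap throughout.

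The 150 bases before the start sites of 4 of these called genes are shown (RefSeq, GRCm38.p6), as interleukin-1 and chemokine genes called higher in adult cells. Windows of C5ar1, Stat3 and Socs3 were searched too and held no match, and none was at hand for Ccl7. They run from chr2:129309973-129310122 (Il1a, minus strand), chr2:129371140-129371289 (Il1b, minus strand), chr11:83649379-83649528 (Ccl3, minus strand) and chr5:90903749-90903898 (Cxcl2, plus strand). Capitals mark matches to a TATA box (TATAAA, sense strand), the NF-kB consensus or AP-1 (TGANTCA), the latter pair searched on both strands.
Il1a: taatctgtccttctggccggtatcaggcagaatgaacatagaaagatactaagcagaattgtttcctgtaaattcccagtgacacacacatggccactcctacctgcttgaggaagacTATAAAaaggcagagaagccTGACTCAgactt
Il1b: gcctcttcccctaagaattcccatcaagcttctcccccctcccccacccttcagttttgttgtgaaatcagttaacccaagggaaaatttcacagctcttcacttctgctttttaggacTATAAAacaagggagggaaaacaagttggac
Ccl3: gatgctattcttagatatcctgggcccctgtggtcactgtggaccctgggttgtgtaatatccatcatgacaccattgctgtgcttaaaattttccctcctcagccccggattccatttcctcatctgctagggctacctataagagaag
Cxcl2: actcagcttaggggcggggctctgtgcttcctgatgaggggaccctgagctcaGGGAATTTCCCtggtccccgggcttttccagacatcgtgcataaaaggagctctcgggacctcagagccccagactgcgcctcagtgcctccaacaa
A TATA box was found before Il1a and Il1b, an AP-1 match before Il1a and 2 overlapping NF-kB matches before Cxcl2, and Ccl3 had no match to these or to C/EBP (TTGCNNAA) or STAT (TTCNNNGAA) letters. Of 32851 such windows 4.84% held the TATA letters, 0.788% these NF-kB letters and 4.24% the AP-1 letters. A match is a description of the letters and not a site in use.

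These transcripts were also summed per cell. Over all 38 chemokines, cytokines and growth factors the summed level was 7612, 24509 and 32773 CPM in adult cells and 3376, 8861 and 32552 CPM in P12 cells, with arms that overlapped. Over 8 of them, picked with their values known, the arms lay further apart. For these 8 (Il1a, Il1b, Ccl2, Ccl3, Ccl4, Ccl7, Ccl12 and Cxcl2) the sum was 3431, 20696 and 32429 CPM in adult cells and 214.1, 3869 and 24095 CPM in P12 cells. At least 4 of the 8 were at 100 CPM or more in 7 of 9 adult cells and in 4 of 14 P12 cells. Adult cells 11 and 48 were the low ones, 7 P12 cells lay within the adult range, and only P12 cell 44 lay above the adult median. In 8 P12 hippocampus microglia at the same P2ry12 minimum the sum was 437.7, 3438 and 13531 CPM, and 2 cells had at least 4 of the genes.

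Transcripts that respond within minutes to handling or stimulation were measured beside them. The summed level of 40 immediate early and stress genes was 23345, 41826 and 95127 CPM in adult cells and 27660, 53255 and 79336 CPM in P12 cells, with arms that overlapped. Fos was at 2748 CPM in the adult arm and 2424 CPM in the P12 arm, Jun at 776.6 and 994.4 CPM, Atf3 at 4617 and 3697 CPM, and Egr1 at 5478 and 9686 CPM. Of the 37 measured, 6 were higher in adult cells (Fosb, Egr2, Egr3, Nr4a1, Socs3 and Gadd45b) and 5 were lower, among them Ier5, Klf2, Hsp90aa1 and Dnaja1. Fosb, a partner of Jun in AP-1, was at 740.8 against 107.5 CPM. Ier5 went the other way, at 38.98 against 301.2 CPM, with reads in all 14 P12 cells and 5 of 9 adult cells. The part of cell handling in the cytokine levels was not tested.

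**Figure D3:**
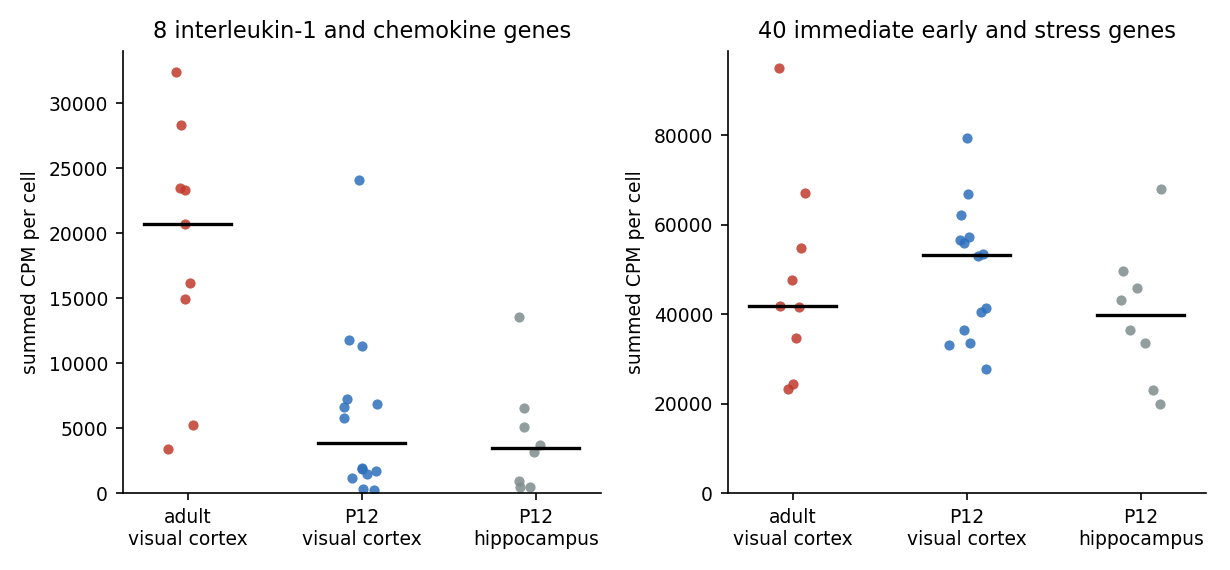
Each point is 1 cell, the y axes give summed CPM, and black bars are medians. The 8 interleukin-1 and chemokine genes have a median of 20696 CPM in adult cells, 3869 in P12 visual cortex and 3438 in P12 hippocampus, with 7 of 14 P12 visual cortex cells inside the adult range. The 8 were picked with their values known, and the 40 immediate early and stress genes also overlap between all sets.

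Some receptors and effectors of innate immunity were higher in adult cells as well. C5ar1, the receptor of the complement fragment C5a, was at 0, 1656 and 11922 CPM in adult cells and at 0, 0.617 and 1924 CPM in P12 cells. The 4 highest adult cells lay above every P12 cell and the sum was 10.6-fold higher (3698 against 348.7 CPM), with a log2 ratio of 2.82 without adult cell 22 and 3.89 without P12 cell 34. Tlr2, a receptor of bacterial lipoproteins, was 13.1-fold higher in sum (1162 against 88.7 CPM) but was read in only 5 cells of each arm. Gpr84, a receptor of medium-chain fatty acids, was at 0, 689.7 and 3299 CPM against 0, 0 and 1056 CPM, 6.64-fold higher in sum.

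Casp4, the caspase that senses bacterial lipopolysaccharide in the cytosol, was at 0, 664.2 and 3497 CPM in adult cells and at 0, 0 and 271.1 CPM in P12 cells. In 5 of 9 adult cells it lay above every P12 cell, and the sum was 22-fold higher (671.5 against 30.5 CPM), with a log2 ratio of 3.71 without adult cell 11 and 6.66 without P12 cell 2. Casp1, the caspase that cleaves interleukin-1 beta, was 8.32-fold higher in sum and reached 100 CPM in 6 adult cells and 1 P12 cell. Plaur, the urokinase receptor, was 16.4-fold higher (512.1 against 31.2 CPM), with reads in 6 of 9 and 3 of 14 cells. Stab1, a scavenger receptor, was at 1078 against 114.9 CPM. It counts among the border-associated macrophage markers, of which Mrc1 was lower in adult cells.

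Stat3, the transcription factor downstream of interleukin-6 type cytokines, was at 1.02, 213.2 and 2944 CPM in adult cells and at 0, 42.5 and 208.0 CPM in P12 cells. Of the adult cells 6 lay above the highest P12 cell, and the sum was 15.6-fold higher (784.7 against 50.3 CPM). Socs3, the feedback inhibitor of that pathway, had 1 read in the whole P12 arm and was at 47.7 CPM in the adult arm, a ratio of 895.1 with a counting interval of 160.0 to 35420. It was read in 5 of 9 adult cells. Mapkapk2, the kinase that stabilises cytokine mRNAs, also had 1 read in the P12 arm and was at 135.7 CPM in the adult arm, again in 5 cells.

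The remaining genes of the 15 ranked highest by the difference of cell medians were of mixed roles. Srgn, the proteoglycan core of secretory granules, was 10.3-fold higher and read in 8 of 9 adult and 3 of 14 P12 cells. Arid5b, a DNA-binding cofactor, was 55.8-fold higher and read in 6 and 2 cells. Runx1, a transcription factor of blood cell development, was 2.98-fold higher with 7 cells read in each arm. Nfat5, Dnajb9, Map3k12, Upk1b and Tnpo3 were 5.36-, 7.54-, 3.36-, 7.18- and 21.4-fold higher in sum, and for each the adult cells ran from 0 upwards, overlapping the P12 cells.

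Surface and adhesion genes were among those set apart by cell. Cd9, a tetraspanin, was at 181.0, 1803 and 4177 CPM in adult cells and at 0, 263.6 and 1666 CPM in P12 cells, 3.09-fold higher in sum. It was read in all 9 adult cells and 5 of them lay above every P12 cell. Itgav, the integrin chain that activates TGF-beta, was at 0, 108.1 and 431.8 CPM against 0, 3.49 and 89.9 CPM, and 5 adult cells lay above all P12 cells. Itga5, the fibronectin receptor chain, was read in 5 adult cells (up to 882.8 CPM) and in no P12 or P12 hippocampus cell. Its adult sum was 944.6-fold above the floor of the P12 arm.

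Several core microglial genes were close between the ages, and others were not. Cx3cr1 was at 4910, 7453 and 9883 CPM in adult cells and at 236.3, 8873 and 17658 CPM in P12 cells, a summed log2 ratio of -0.23. Ctss, a lysosomal protease, was at 5935 and 5926 CPM in the summed arms, C1qb at 3959 and 3818 CPM and Tyrobp at 1311 and 1361 CPM. Csf1r was at 4705 and 3217 CPM. Tmem119 was at 1251 CPM in the adult arm and 550.1 CPM in the P12 arm, and its log2 ratio ran from 0.69 to 1.77 as cells were left out, so it did not meet the rule. Of 30 homeostatic genes, all measured, 0 were higher and 3 were lower, with a median log2 ratio of -0.39, next to -0.45 over all measured genes. Without the condition on left-out cells 2 were at least 2-fold higher and 7 at least 2-fold lower. P2ry12, which chose the P12 cells, was not taken out of this or any other list before counting. With all 18 labelled P12 cells the list median was -0.16, next to -0.68 over all measured genes.

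The 3 lower homeostatic genes were Olfml3, Gpr34 and Crybb1. Olfml3, a secreted glycoprotein, was at 22.1, 799.4 and 2599 CPM in adult cells and at 220.8, 3154 and 16132 CPM in P12 cells. It was read in every cell of both arms, 8 P12 cells lay above the highest adult cell, and the sum was 4.77-fold lower in adult cells (846.4 against 4037 CPM). Gpr34, a receptor of lysophosphatidylserine, was at 2.55, 1571 and 2590 CPM against 107.4, 3173 and 7417 CPM, 2.3-fold lower. Crybb1, a crystallin found among early microglial genes, was at 0, 0 and 103.4 CPM against 0, 138.4 and 766.0 CPM, with reads in 2 of 9 adult and 13 of 14 P12 cells.

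Complement genes went in both directions. Of 30 measured complement and phagocytosis genes 4 were higher (C5ar1, Cd47, Stab1 and Itgav) and 4 lower (among them Gas6, Dock2 and Rac2), 13.3% each way. Gas6, the bridging ligand of phagocytic receptors, had no read in the adult arm and was at 93.7 CPM in the P12 arm, 355.7-fold above the adult floor of 3 reads. In the P12 arm 1 cell held most of that, since the log2 ratio was -6.57 with and -3.69 without P12 cell 2.

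**Figure D4:**
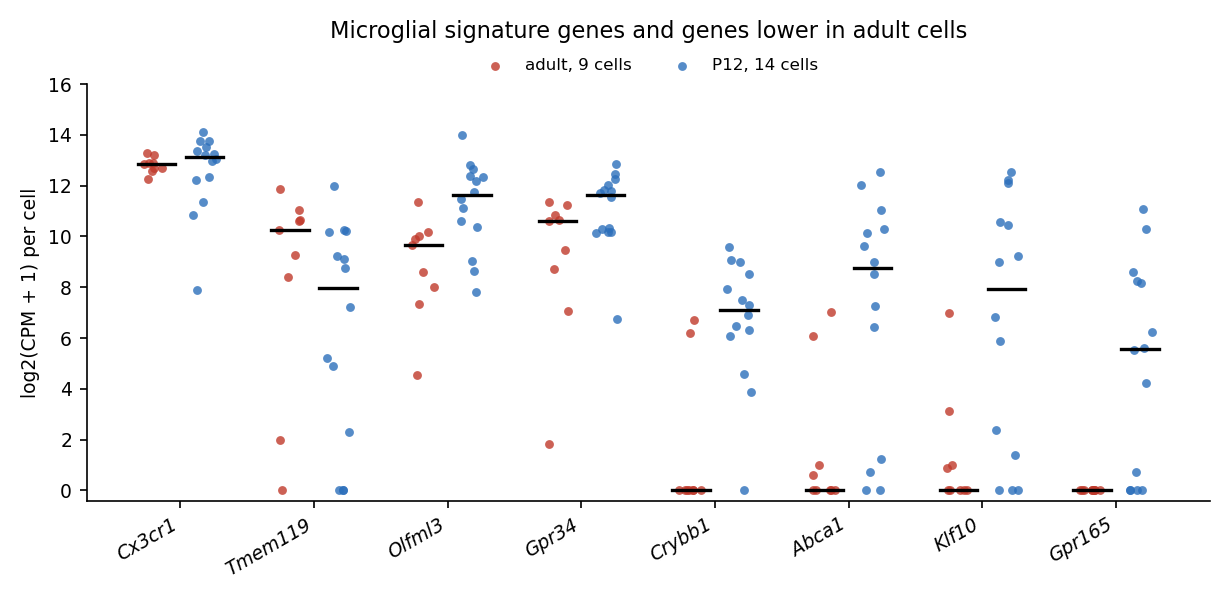
Each point is 1 cell, the y axis is log2(CPM + 1), and black bars are medians over the cells of an arm. Cx3cr1 overlaps between the arms, while Olfml3, Gpr34, Crybb1 and Abca1 each have at least 8 of 14 P12 cells above the highest adult cell, and Gpr165 has no read in adult cells.

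Among lipid genes, Abca1, which exports cholesterol from the cell, was at 0, 0 and 128.0 CPM in adult cells and at 0, 437.4 and 5987 CPM in P12 cells. Of the P12 cells 9 lay above every adult cell, and the sum was 59.3-fold lower in adult cells (16.9 against 1005 CPM). Apoe, the lipid carrier protein, was at 1.49 against 266.2 CPM, and the P12 value came from few cells, 3 of 14 at 100 CPM or more. Fdps, an enzyme of cholesterol synthesis, had no read in the adult arm. Of 24 measured cholesterol and lipid genes, out of 39 in the table, 8 were lower (33.3%) and 2 higher (8.33%), with a median log2 ratio of -0.61, next to 23.3%, 9.32% and -0.45 over all measured genes.

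The 15 genes ranked lowest by the difference of cell medians included Abca1 and Klf10. Klf10, a zinc-finger factor induced by TGF-beta, was at 0, 0 and 126.8 CPM in adult cells and at 0, 308.6 and 5971 CPM in P12 cells, 118-fold lower in sum (12.9 against 1520 CPM). In P12 hippocampus microglia it was at 175.4 CPM in sum, between the arms. Zmiz1, a coactivator, was at 0, 0.976 and 412.4 CPM against 0.570, 622.0 and 2869 CPM, with 8 P12 cells above every adult cell. Bclaf1, Hbp1, Ypel5, Usp22 and Cnbp were 9.35-, 12.8-, 12.8-, 8.05- and 5.09-fold lower in sum. Without adult cell 35 the log2 ratio of Bclaf1 went from -3.21 to -9.94, and without adult cell 48 that of Klf10 went from -6.77 to -9.17. Kdm5a, a histone demethylase, had reads in 1 adult cell (8.50 CPM) and 9 P12 cells. The other 6 (Atp5c1, Klf13, Specc1, Cops4, Morc3 and Susd3) were 2.45- to 31.6-fold lower.

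Several receptors and lysosomal proteins had no read in any adult cell. Gpr165, an orphan receptor, was read in 10 of 14 P12 cells (median 46.9, highest 2184 CPM), and its P12 sum was 1232-fold above the adult floor of 3 reads. Clec4a3, a C-type lectin, was read in 10 of 14 P12 cells (median 18.96, highest 1497 CPM), and Slc46a3, a lysosomal transporter, in 9 (highest 2381 CPM). Lamtor1, which anchors mTORC1 to the lysosome, was read in 10 P12 cells at up to 458.2 CPM. Sumo2, a small protein modifier, gave the pattern in the most cells, with 11 of 14 P12 cells above the highest adult cell (7.29 CPM), at 104.4 against 1.14 CPM in sum.

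Receptor families held genes in both directions. Of 25 measured purine and small-molecule receptors and channels 7 were lower (28%) and 2 were higher (8%), Gpr84 and P2rx4. Over all measured genes these shares were 23.3% and 9.32%. Among the 7 was P2ry6, a receptor of uridine diphosphate linked to phagocytosis (73.5 against 473.3 CPM). P2rx4 was read in 3 adult cells and 1 P12 cell. P2ry13 was at 1915 and 2873 CPM, a log2 ratio of -0.59. Of 30 measured pattern recognition and inhibitory receptors 2 were higher (6.67%), Tlr2 and Casp1, and 5 were lower (16.7%). Among the 5 were Cd180 and Ly96, partners of Toll-like receptor signalling. Cd14, the co-receptor of lipopolysaccharide, was at 2718 and 959.2 CPM, and 4 adult cells lay above every P12 cell, but the ratio dropped to a log2 value of 0.96 with 1 cell left out.

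**Figure D5:**
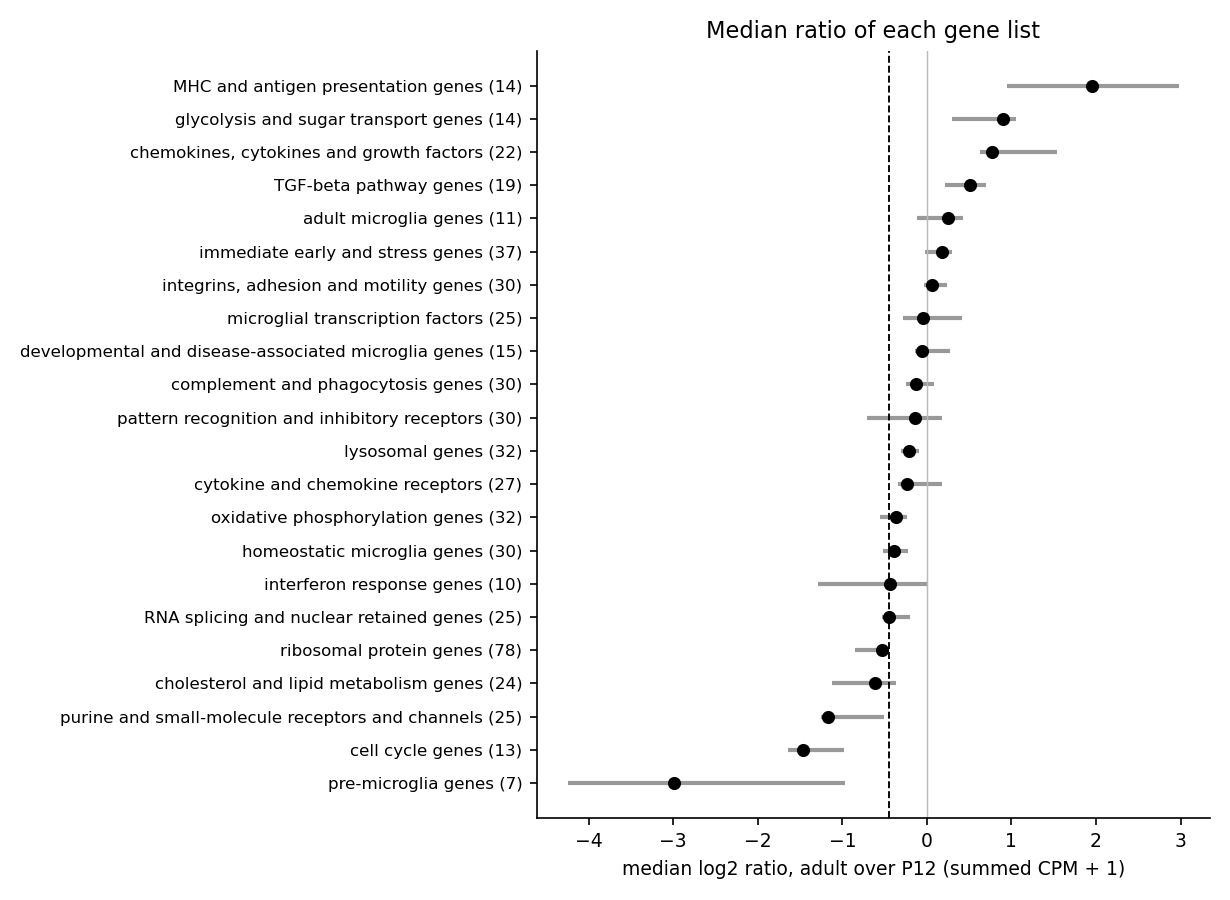
Points give the median log2 ratio, adult over P12, of the measured genes of each list (their number in parentheses), and grey lines its range as single cells were left out; the dashed line is the median of all measured genes, -0.45. MHC and antigen presentation genes lie highest (1.96) and pre-microglia genes lowest (-3.00), each with a wide range.

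Transcription factors that define microglia were mixed. Of 25 measured 5 were higher (Runx1, Sall3, Irf5, Stat3 and Mitf) and 1 was lower, Irf1, a factor of the interferon response, with 2 reads in the adult arm against 105.5 CPM in the P12 arm. Irf5, a driver of inflammatory cytokines, was at 807.2 against 190.8 CPM. Sall1, which maintains microglial identity, was at 471.6 and 968.3 CPM and did not meet the rule. Mef2a was at 1905 and 644.9 CPM, and it too did not meet the rule. For 13 measured cell cycle genes, out of 30 in the table, 3 were lower and 0 higher, with a median log2 ratio of -1.47 that became -0.36 with no minimum level and -0.44 at a minimum of 50 CPM. The 7 measured pre-microglia genes had a median of -3.00, which ran from -4.25 to -0.97 as adult cell 8 or P12 cell 44 was left out and was -0.85 with no minimum level and -7.12 with medians over cells.

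Genes of antigen presentation had a list median of 1.96, the highest as processed here, which ran from 0.95 without adult cell 8 to 2.98 without P12 cell 28. That rank did not hold at a minimum of 50 CPM (1.18, against 1.37 for glycolysis genes) or with medians over cells (1.38, against 3.01 for chemokines), and with no minimum level the median was 0.99. Of 14 measured, out of 22 in the table, 6 were higher (42.9%), namely H2-Q7, H2-T23, Psmb8, H2-DMa, H2-DMb1 and Cd80, and 1 lower, Psmb9; each of the 6 reached 100 CPM in 2 adult cells, and the class II chains H2-Aa and H2-Eb1 had no read in either arm. The abundant class I genes were close, with H2-K1 at 2679 and 2124 CPM and B2m at 1493 and 1652 CPM. Near-identical class I genes may share reads, and how multiply mapped reads were counted is not given in the sources used here, so H2-Q7 and H2-T23 are uncertain.

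The other lists lay at varied distances from the median of all measured genes. Of 22 measured chemokines, cytokines and growth factors 6 were higher (27.3%) and 1 lower, with a median log2 ratio of 0.77 that became -0.47 when all 18 labelled P12 cells were used. Of 19 measured TGF-beta pathway genes 2 were higher and 4 lower (median 0.51). Of 32 measured lysosomal genes 1 was higher, the cholesterol transporter Npc1, and 5 lower, among them Lipa (median -0.22), and of 32 measured oxidative phosphorylation genes 1 was higher and 6 lower (median -0.36), among them Sdhc, with no read in the adult arm. Of 14 measured glycolysis genes 3 were higher (Hk2, Tpi1 and Ldha) and 3 lower, with a median of 0.90 that became -0.13 when adult cell 22 was left out before genes were called measured. Of 78 measured ribosomal protein genes 2 were higher and 17 lower (21.8%), with a median of -0.53. Of 30 measured integrin, adhesion and motility genes 4 were higher and 5 lower (median 0.06). Of 27 measured cytokine receptors 1 was higher and 4 lower. Of 15 measured genes of developmental and disease-associated microglia 3 were higher (Cd9, Ccl3 and Lyz2) and 1 lower (Apoe). Of 10 measured interferon response genes 0 were higher and 1 lower, and of 11 measured genes of adult microglia 0 were higher and 1 lower. Of 25 measured RNA splicing and nuclear retained genes 3 were higher and 3 lower (Xist, Hnrnpu and Ddx17).

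The 8 P12 hippocampus microglia give a second view of the P12 level, although they share the day with the P12 arm and not the region. Il1a was at 660.5 CPM there, next to 766.0 CPM in the P12 visual cortex. C5ar1 was at 509.8 CPM, next to 348.7, and Casp4 at 69.2 CPM, next to 30.5. Olfml3 was at 1782 CPM, between the adult level of 846.4 and the P12 visual cortex level of 4037, and Abca1 at 237.8 CPM also lay between. Stat3 was at 257.6 CPM, between 50.3 in the P12 arm and 784.7 in the adult arm, and Cxcl2 at 110.9 CPM was above both arms.

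The choice of P12 cells bears on some of these genes. In the 4 P12 cells left out, summed, Ccl7 was at 4810 CPM, Ccl2 at 7404 CPM, C5ar1 at 3486 CPM, Stab1 at 1956 CPM, Lyz2 at 4911 CPM and Cxcl2 at 505.0 CPM, each above the kept P12 cells. All of these but C5ar1 were also above the adult arm. Il1a was at 0.170 CPM and Plaur at 0.170 CPM in them, below both arms. Casp4 was at 199.0 CPM and Gpr84 had no read. With all 18 labelled P12 cells the directions of Cxcl2, Lyz2 and P2rx4 turned, and with adult cells 1 and 6 put back those of Klf13 and Lamtor1 did.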

How the data were processed

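Full-length cDNA of single wild-type mouse cells was sequenced without molecular identifiers. The authors deposited raw read counts per gene, 1 column per cell, made with STAR, HTSeq 0.6.0 and the mm10 build, per the submitters' processing notes; their settings were not known here. From these counts CPM per cell and CPM of summed arms were computed with Python 3.11.15, pandas 2.3.3 and scipy 1.17.1; TMM factors came from edgeR 4.0.16 (R 4.3.3), used for scaling only. The 9 adult cells held 11391482 reads and the 14 P12 cells 18778501, and intervals cover counting error only. Of the capital symbols in the files 21274 matched a mouse symbol, 744 an older one, and 56 were kept as given. Of 815 list entries 13 had no match and were not analysed here. The cells compared and the gene lists were chosen with earlier results of these data known. Genes are named if called, at 50 CPM or more in the higher arm, and among 15 per direction by the difference of cell medians; list members and genes set apart by cell were named too, the latter chosen after their values were seen. Cells with a read were also counted after thinning to 700000 reads per cell, which no cell compared fell short of. The code was tested on simulated data. Some genes are not reported here.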

Additional observations from a re-analysis of the deposited data

Results flagged for a closer look

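Over the 9 adult cells, a cell was singled out when its gap to the nearest other cell, on the log2 scale, was large for the range of the arm (Dixon's test); 24 of the 150 sets of values looked at had such a cell. The cut-offs flag about 1 in 20 groups of independent, normally distributed values. Single-cell levels with many zeros are not such values, so no excess over chance is read from the count. Adult cell 50 was low in the summed pattern recognition and inhibitory receptors (2249 CPM), in B2m (1.02 CPM) and in Ccl4 (0 CPM), and was the adult cell with a read of Rac2 (1.02 CPM). Adult cell 11 was low in summed oxidative phosphorylation genes (69.8 CPM), in Hspa8 (487.2 CPM) and in Ccl2 (0 CPM), and high in Apoe (15.6 CPM). Adult cell 37 was low in summed RNA splicing and nuclear retained genes (5314 CPM) and in Gpr34 (2.55 CPM). It was high in Cst3 (38645 CPM) and Kdm5a (8.50 CPM). Adult cell 35 was low in Jun (2.60 CPM) and Fosb (0 CPM), and high in Bclaf1 (1704 CPM) and Tnf (66.4 CPM). Adult cell 18 was high in Dock2 (520.8 CPM), Sumo2 (7.29 CPM), Susd3 (557.8 CPM) and Lipa (359.1 CPM). Adult cell 48 was low in Il1a (35.1 CPM) and high in Klf10 (126.8 CPM), adult cell 8 was high in Hbp1 (551.6 CPM), and adult cell 22 was low in Ccl3 (0 CPM).

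Cells left out of the comparison carried signals of their own. Adult cells 1 and 6 held 11002 CPM of 13 B cell markers in sum, where the other adult cells held 0 to 588.6 CPM. The 4 P12 cells under the P2ry12 minimum held 31690 CPM of the border-associated macrophage markers in sum, where the highest kept P12 cell held 7239 CPM.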

How the results depend on the processing

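No paired analysis was possible because each arm is 1 sample and the comparison has no test. The counts of 527 higher and 1319 lower genes stayed within 1.5 times in 74 of 80 recomputations. With medians over cells they were 229 and 321, with a minimum of 50 CPM the lower count was 671, at 4-fold the higher count was 315, and without the condition on left-out cells they were 1783 and 2440. With medians over cells 78 of the 229 and 138 of the 321 were among the main calls, so most were different genes. Of the calls 28.5% were in the higher direction, against 20% with all 18 P12 cells, 41.6% with medians over cells and 42.2% without the condition on left-out cells. Leaving out 1 cell gave 449 to 574 higher and 1239 to 1424 lower genes. The 26 genes set apart on the adult side were 16 at a minimum of 50 CPM, 16 with all P12 cells, 8 with adult cells 1 and 6 put back, 11 without adult cell 35, whose OPC markers passed 25% of the class median, and 11 to 33 as single cells were left out. The 41 on the P12 side were 62 and 64 at P2ry12 minimums of 1000 and 5000 CPM, and 48 to 73 as single cells were left out. The cut-off for a gene set apart, a majority of the cells in the arm, moves with the number of cells. Where a setting changed which cells were used, part of the shift can come from that alone. Such shifts are not read as dependence on a cell or a threshold. With all P12 cells the log2 ratios of Cxcl2 (-1.31), P2rx4 (-0.98) and Lyz2 (-1.40) turned negative, as did Cxcl2 at a minimum of 1000 CPM (-0.72). With adult cells 1 and 6 put back those of Klf13 (0.06) and Lamtor1 (2.23) turned positive. For the reversals the change lies in which cells were summed. Of 5040 recomputed gene ratios 4913 moved by less than the spread between cells. Of 880 recomputed list medians 862 did so. These counts do not measure how firm the values are. Some settings, such as the fold and the condition on left-out cells, cannot change a ratio, and the spread between single cells is wide.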
